A study of Mus musculus with 7 samples.

Results

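The genes described here encode the machinery that degrades messenger RNA: the CCR4-NOT and PAN deadenylases, the decapping factors with the Lsm ring, the 5′ to 3′ exonucleases, the RNA exosome and the nonsense-mediated decay factors. A list of 45 mouse genes was matched to the gene symbols of the deposited expression table, and 44 of them had a row among 23038 genes. Cnot11 had none under its own symbol. Its NCBI Gene identifier stood under the older symbol D1Bwg0212e, and it is described apart.

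The mutants were Mx1-cre; Mettl3 fl/fl mice, in which pIpC, a double-stranded RNA analogue, switches on the interferon-driven Mx1 promoter and so Cre, which deletes Mettl3. The controls were Cre-negative littermates. All mice were of the C57BL/6 strain, and both groups were injected with pIpC, 5 times with 10 µg, and their bone marrow was taken 10 days after the last dose. Mx1-cre is active in many interferon-responsive cells and not in stem cells alone. For each library 150 haematopoietic stem cells (HSCs), sorted as Lineage-, Sca1+, cKit+, CD150+ and CD48-, were used with Smart-seq2, which copies transcripts over their full length, giving 4 mutant and 3 control libraries. The values are RPKM, read counts divided by gene length and by library size, and the table holds 1 mean per gene and group. No value of a single animal could be shown, no spread or test across animals could be computed, and a mean carried by 1 library cannot be recognised. Every "higher" or "lower" below compares 2 such means and has no replicate check.

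Deadenylation is the first step of decay for most messenger RNAs. PAN2-PAN3 trims long poly(A) tails and CCR4-NOT removes the rest, after which the RNA is either decapped by DCP2 and digested from the 5′ end by XRN1, or digested from the 3′ end by the exosome. METTL3 places N6-methyladenosine (m6A) on messenger RNA, and in human cells the m6A reader YTHDF2 shortens the life of its targets by binding the CCR4-NOT scaffold CNOT1. The decay genes thus act downstream of the mark that METTL3 places.

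Mettl3 was at 9.60 RPKM in mutants and 49.8 RPKM in controls, 19.3% of the control level. All 7 HSC markers were present in both groups, 3 of them higher in mutants, with a summed level of 308 RPKM in mutants and 336 RPKM in controls. Farthest apart were Kit, at 39.9 RPKM in mutants and 67.4 RPKM in controls, Hlf, at 11.9 RPKM in mutants and 19.3 RPKM in controls, and Fgd5, at 5.88 RPKM in mutants and 8.40 RPKM in controls. Cd3e and Cd79a, which mark T cells and B cells, were at the value of a gene without reads in both. Of 6 monocyte and macrophage markers, 3 were higher in mutants. Their summed level was 400 RPKM in mutants and 434 RPKM in controls, of which Lyz2 made up 289 RPKM in mutants and 406 RPKM in controls. Without Lyz2 the sum was 111 RPKM in mutants and 28.5 RPKM in controls, mostly from Cd68, at 108 RPKM in mutants and 26.4 RPKM in controls. Cd14 (0.790 RPKM in mutants, 0.0277 RPKM in controls) and C1qa (1.38 and 0.212 RPKM) were low in both groups. C1qb was also low and went the other way, at 0.904 RPKM in mutants and 1.87 RPKM in controls. Csf1r was at the value of a gene without reads in both. The part of other cells, or of the lower HSC markers, in the values below was not tested. In bulk RNA, fewer cells of a type and less RNA per cell cannot be told apart.

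Most of the decay genes differed little between the groups, and few were at least 1.5-fold apart. A difference here is the log2 of the mutant over the control mean after 1 RPKM was added to each (a pseudocount), which makes the change of low genes look smaller. On this scale 28 of the 44 genes (63.6%) differed by less than 0.25, as did 44.7% of the 14539 genes with reads. The median was -0.02 for the decay genes and 0.02 for all genes with reads. Of the 44, 21 were higher in mutants, against 52.6% of the genes with reads, and 22 were higher when both columns were scaled to equal sums, where Cnot2 changed direction. A single gene, Dcp1a, was at least 1.5-fold higher, where 13.0% of genes with reads were. Pan2, Dcp1b, Edc3 and Cnot6 were at least 1.5-fold lower, 4 of 44 where 10.4% of genes with reads were. Among genes with at least 10 RPKM in 1 group, these backgrounds were 13.3% higher and 8.58% lower. Of the 28 decay genes in that set, 0 were at least 1.5-fold higher and 3 lower. Pan2 alone was at least 2-fold lower, where 3.47% of genes with reads were, and none of the decay genes was at least 2-fold higher, where 3.67% were. The counts are near or below these background shares.

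**Figure D1:**
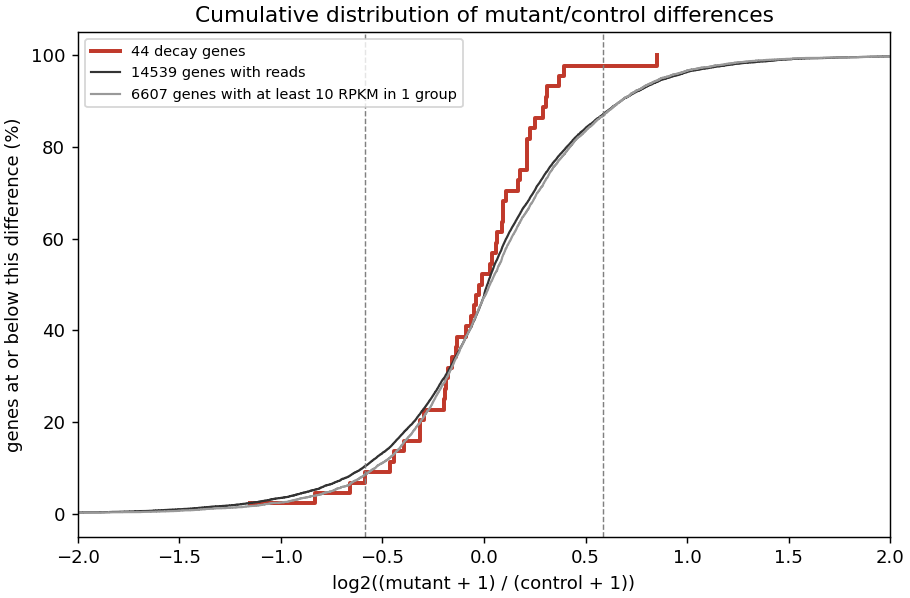
Cumulative share of genes (vertical axis, %) at or below each mutant/control difference (horizontal axis, log2 with a pseudocount of 1 RPKM, dashed lines at 1.5-fold) for the 44 decay genes in red, all 14539 genes with reads in black and 6607 genes with at least 10 RPKM in 1 group in grey. The red curve is steeper through 0, with 63.6% of decay genes inside 0.25 on either side, and reaches from -1.15 (Pan2) to 0.85 (Dcp1a).

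Of the 5 genes farthest apart, Pan2 and Cnot6 are deadenylase genes, and Dcp1a, Dcp1b and Edc3 are decapping genes. Pan2, the catalytic exonuclease of the PAN2-PAN3 deadenylase, was at 3.24 RPKM in mutants and 8.41 RPKM in controls, a log2 difference of -1.15. By level it stood at percentile 38.9 of the genes with reads in mutants and at percentile 54.9 in controls. Pan3, the partner that recruits PAN2 to poly(A)-bound RNA, was at 15.6 RPKM in mutants and 13.4 RPKM in controls (0.21). Pan2 thus made up 17.2% of the pair's summed RPKM in mutants and 38.6% in controls.

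Dcp1a and Dcp1b encode alternative forms of DCP1, the activator of the decapping enzyme DCP2, and they differed in opposite directions. Dcp1a was at 3.13 RPKM in mutants and 1.29 RPKM in controls, a log2 difference of 0.85. Dcp1b was at 7.66 RPKM in mutants and 14.4 RPKM in controls (-0.83). The share of Dcp1a in their sum was 29.0% in mutants and 8.21% in controls, while the sum itself was 10.8 RPKM in mutants and 15.7 RPKM in controls. Dcp1b remained the more abundant form in both groups. Dcp1a had the lowest level of all 44 genes in controls, and its difference was 2-fold or more with a pseudocount of 0.1 RPKM.

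Edc3, an enhancer of decapping that scaffolds the complex, was at 15.2 RPKM in mutants and 24.6 RPKM in controls (-0.66). Cnot6, 1 of 2 CCR4-type nucleases of CCR4-NOT, was at 11.3 RPKM in mutants and 17.5 RPKM in controls (-0.59). It lay just past the 1.5-fold line at 0.58, and with equal column sums it lay inside it, at -0.58. Next farthest apart, within 1.5-fold, were Exosc9 (-0.46) and Xrn1 (-0.44).

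The promoters of these 5 genes are shown because their transcripts differ most between the groups. Each line gives the 120 bases before the 1 transcription start that the RefSeq promoter table lists for the gene, on the gene's own strand (GRCm38.p6, the assembly that mm10 names). RefSeq gene spans can begin at another start further upstream, so 120 bases of the Cnot6 window, 79 of the Dcp1a window, 29 of the Edc3 window and 2 of the Pan2 window lie inside the annotated gene. Capitals mark every CCAAT (read as ATTGG on the other strand) and every CGGAAG, the core of sites for ETS family factors (read as CTTCCG on the other strand). These 2 short motifs were added after the promoters had been read.
Pan2, chr10:128303215-128303334, plus strand: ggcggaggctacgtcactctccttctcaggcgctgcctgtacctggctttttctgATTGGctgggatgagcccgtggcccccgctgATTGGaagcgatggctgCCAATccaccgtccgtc
Dcp1a, chr14:30479445-30479564, plus strand: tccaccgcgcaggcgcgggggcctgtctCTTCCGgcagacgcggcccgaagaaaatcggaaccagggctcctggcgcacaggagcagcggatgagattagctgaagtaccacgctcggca
Dcp1b, chr6:119175133-119175252, plus strand: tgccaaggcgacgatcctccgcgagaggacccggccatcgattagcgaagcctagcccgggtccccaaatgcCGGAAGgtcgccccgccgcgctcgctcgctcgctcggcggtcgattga
Edc3, chr9:57708449-57708568, plus strand: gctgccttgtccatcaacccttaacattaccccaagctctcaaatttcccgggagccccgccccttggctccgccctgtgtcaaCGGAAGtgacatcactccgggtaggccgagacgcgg
Cnot6, chr11:49712723-49712842, minus strand: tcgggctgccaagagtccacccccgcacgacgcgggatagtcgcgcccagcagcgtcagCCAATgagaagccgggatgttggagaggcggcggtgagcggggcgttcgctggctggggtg

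The 5 windows did not share 1 motif. Pan2 had 3 CCAAT matches, beginning 65, 34 and 17 bases before the start, and Cnot6 had 1, beginning 61 bases before it. CGGAAG was in Dcp1a, Dcp1b and Edc3, so it was in the pair that differed in opposite directions. RefSeq gave 45 promoter windows of 300 bases (250 before and 50 after the start) for 36 of the 44 genes, some with several starts. CCAAT was in 33.3% of these windows and in 37.5% of the 14428 windows of genes with reads, and CGGAAG in 42.2% and 28.7%. The longer ETS motif CCGGAAGT was in 8.89% and 7.40%, the NRF1 motif CGCATGCG in 8.89% and 3.53%, and the E-box CACGTG in 6.67% and 9.58%. The YY1 motif AAGATGGCG was in 6 of the 45 windows (13.3%), those of Cnot3, Dcp1b, Exosc2, Lsm7 and Upf3b, against 2.68% of windows of genes with reads. TATAAA was in 0 of 45 windows and in 7.58% of those of genes with reads. All motifs were read on both strands, and CCGGAAGT contains CGGAAG. The median promoter of the decay genes was 64.3% G or C with 26 CpG, against 60.0% and 19 CpG for genes with reads. A match describes letters and shows neither binding nor a cause.

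**Figure D2:**
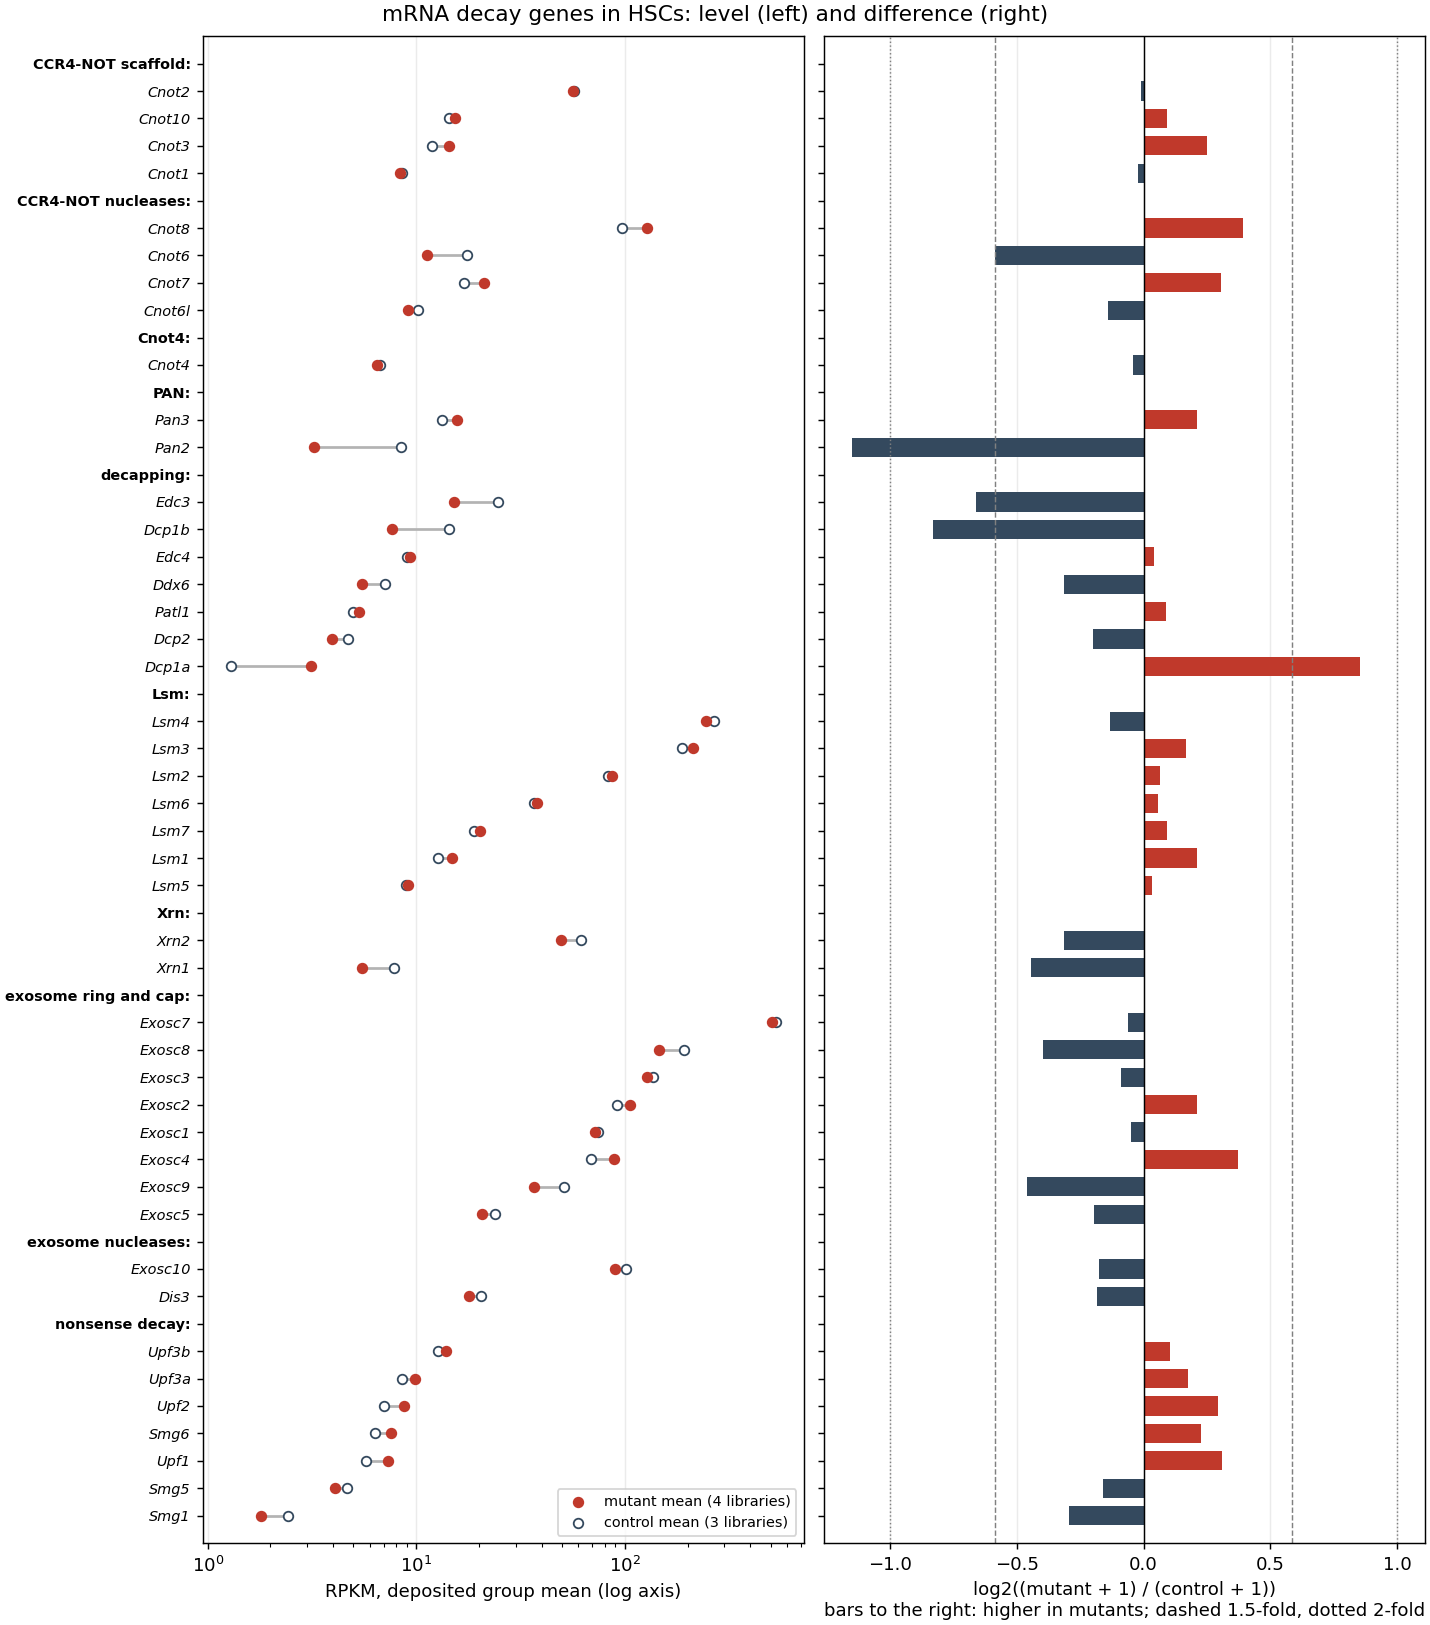
Levels (left, RPKM on a log axis, filled red for the mutant mean of 4 libraries and open for the control mean of 3) and differences (right, log2 with a pseudocount of 1 RPKM, dashed lines at 1.5-fold, dotted at 2-fold) of the 44 decay genes by role. Pan2, Edc3, Dcp1b, Cnot6 and Dcp1a lie past the dashed lines, while the Lsm genes lie within 0.21 of 0. No error bars can be drawn, because each point is a deposited group mean.

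Within CCR4-NOT, the scaffold genes matched by symbol lay between -0.02 and 0.25. Cnot1, the scaffold on which the other subunits assemble, was at 8.40 RPKM in mutants and 8.55 RPKM in controls (-0.02). Cnot2, which pairs with Cnot3 in the module that binds RNA-bound regulators, was the most abundant of them, at 56.6 RPKM in mutants and 57.0 RPKM in controls. Cnot3 was at 14.3 RPKM in mutants and 11.9 RPKM in controls (0.25). Cnot10 was at 15.3 RPKM in mutants and 14.3 RPKM in controls (0.09). Its partner in the N-terminal module, Cnot11, found by its identifier, was at 12.7 RPKM in mutants and 9.52 RPKM in controls (0.38). Cnot4, a ubiquitin ligase that associates loosely with the complex in mammals, was at 6.49 RPKM in mutants and 6.70 RPKM in controls.

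Of the 4 nuclease genes of CCR4-NOT, both of the CAF1 type were higher in mutants, and both of the CCR4 type were lower. Of all genes with reads 52.6% were higher, and a direction shared by so few genes does not set a type apart. Cnot8, a CAF1-type nuclease, was at 128 RPKM in mutants and 97.1 RPKM in controls (0.39). Cnot7, the other CAF1-type nuclease, was at 21.1 RPKM in mutants and 16.9 RPKM in controls (0.30). Cnot6l, the CCR4-type paralogue of Cnot6, was at 9.13 RPKM in mutants and 10.2 RPKM in controls (-0.14). Cnot8 made up most of the nuclease transcripts of the complex, 75.5% in mutants and 68.6% in controls. Cnot6 made up 6.67% in mutants and 12.3% in controls. Within the CAF1 pair the balance hardly differed, with Cnot7 at 14.2% of the pair in mutants and 14.8% in controls.

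**Figure D3:**
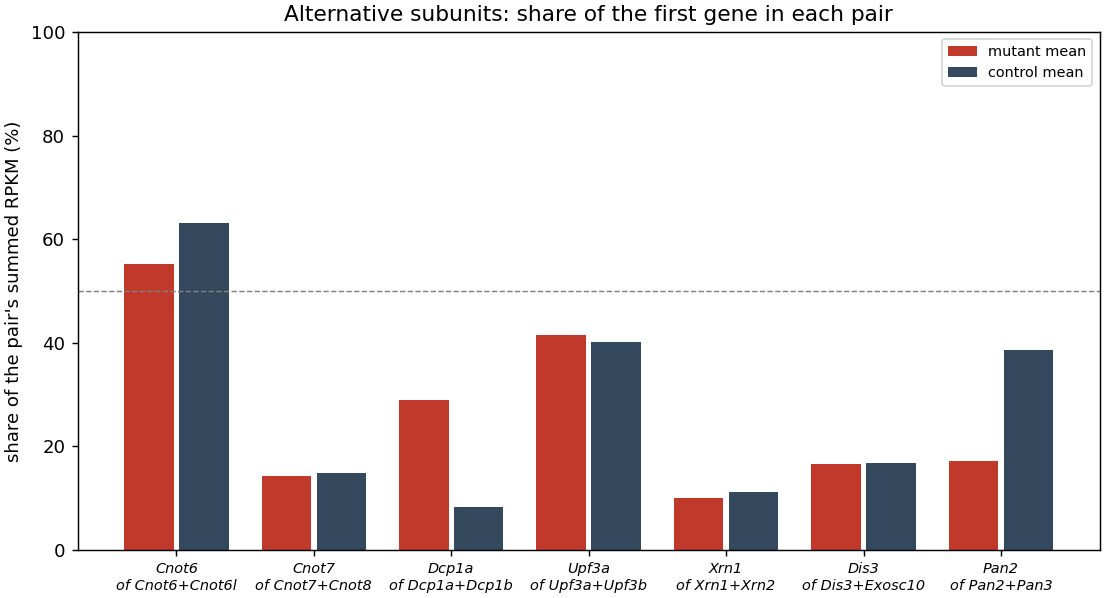
Share (vertical axis, % of the pair's summed RPKM) of the first gene in 7 pairs of alternative or partner subunits, in the mutant mean (red, left bar) and the control mean (dark, right bar), with a dashed line at 50%. The shares of Dcp1a (29.0% in mutants, 8.21% in controls) and Pan2 (17.2% in mutants, 38.6% in controls) differed most. There are no error bars, because each share comes from 1 mean per group.

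Apart from DCP1 and Edc3, the decapping genes were within 1.5-fold. Dcp2, the decapping enzyme, was at 3.96 RPKM in mutants and 4.69 RPKM in controls (-0.20). Ddx6, a helicase that links deadenylation to decapping and to translational repression, was at 5.53 RPKM in mutants and 7.11 RPKM in controls (-0.31). Edc4, a scaffold of the decapping complex, was at 9.29 RPKM in mutants and 9.00 RPKM in controls (0.04). Patl1, which bridges the Lsm ring and the decapping enzyme, was at 5.32 RPKM in mutants and 4.95 RPKM in controls (0.09). Of the 7 decapping genes, 3 were higher and 4 lower in mutants. Their summed level was 50.1 RPKM in mutants and 66.1 RPKM in controls, and Edc3 and Dcp1b, the most abundant and the next in controls, were both among the lower ones.

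The Lsm genes encode the 7 proteins of the ring that binds the shortened 3′ end and promotes decapping. All but Lsm1 also form the nuclear ring of U6 small nuclear RNA, where LSM8 takes the place of LSM1. They differed least of the larger groups, between -0.13 and 0.21, with a median of 0.07. Even so, 6 of 7 were higher in mutants, against 52.6% of the genes with reads. Lsm1, the subunit specific to decay, was at 14.8 RPKM in mutants and 12.7 RPKM in controls (0.21). Lsm4 was the most abundant, at 244 RPKM in mutants and 267 RPKM in controls, and the single lower one. Lsm3 was at 211 RPKM in mutants and 188 RPKM in controls. The remaining Lsm2, Lsm5, Lsm6 and Lsm7 lay between 0.03 and 0.09, and Lsm5 was the least abundant of the ring, at 9.15 RPKM in mutants and 8.93 RPKM in controls.

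Both 5′ to 3′ exonuclease genes were lower in mutants, within 1.5-fold. At any size, 6890 of the 14539 genes with reads were lower, so a direction shared by so few genes does not set them apart. Xrn1, which digests decapped RNA in the cytoplasm, was at 5.49 RPKM in mutants and 7.83 RPKM in controls (-0.44). Xrn2, the nuclear enzyme that also acts in transcription termination, was at 49.7 RPKM in mutants and 62.0 RPKM in controls (-0.31). Xrn1 made up 9.95% of the pair in mutants and 11.2% in controls.

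Of the 10 exosome genes, 8 were lower in mutants, all within 1.5-fold, with a median of -0.13 for the 10. Of all genes with reads 52.6% were higher. Exosc7, of the ring that forms the channel of the exosome, had the highest level of all 44 decay genes, at 511 RPKM in mutants and 533 RPKM in controls. The ring genes Exosc8 and Exosc9 were farthest down, Exosc8 at 146 RPKM in mutants and 192 RPKM in controls (-0.40) and Exosc9 at 36.7 RPKM in mutants and 50.9 RPKM in controls (-0.46). Exosc5, also of the ring, was at 20.7 RPKM in mutants and 23.8 RPKM in controls. The ring gene Exosc4 went the other way, at 89.1 RPKM in mutants and 68.7 RPKM in controls (0.37).

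The cap of the exosome holds the RNA-binding subunits encoded by Exosc1, Exosc2 and Exosc3. Exosc2 was at 106 RPKM in mutants and 91.6 RPKM in controls (0.21). Exosc1 (71.9 RPKM in mutants, 74.4 RPKM in controls) and Exosc3 (128 and 136 RPKM) differed by less than 0.1. The catalytic subunits were both slightly lower. Exosc10, a mainly nuclear exonuclease, was at 90.0 RPKM in mutants and 102 RPKM in controls (-0.18). Dis3, the processive nuclease, was at 17.9 RPKM in mutants and 20.4 RPKM in controls (-0.19). Their balance was nearly the same, with Dis3 at 16.6% of the pair in mutants and 16.7% in controls.

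Nonsense-mediated decay removes transcripts with premature stop codons. All 4 Upf genes were higher in mutants, by 0.11 to 0.31, as were 52.6% of the genes with reads at any size. Upf1, the helicase at the centre of the pathway, was at 7.34 RPKM in mutants and 5.73 RPKM in controls (0.31). Upf2, the adaptor between UPF1 and UPF3, was at 8.77 RPKM in mutants and 6.98 RPKM in controls (0.29). The paralogues Upf3a (9.82 RPKM in mutants, 8.59 RPKM in controls) and Upf3b (13.8 and 12.8 RPKM) link UPF2 to the exon junction complex, and Upf3a made up 41.5% of the pair in mutants and 40.2% in controls.

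The Smg genes did not share a direction. Smg6, the endonuclease that cuts the target near the stop codon, was at 7.58 RPKM in mutants and 6.32 RPKM in controls (0.23). Smg1, the kinase that phosphorylates UPF1, was at 1.80 RPKM in mutants and 2.43 RPKM in controls (-0.30). Smg5, which binds phosphorylated UPF1, was at 4.08 RPKM in mutants and 4.67 RPKM in controls (-0.16). No gene of nonsense-mediated decay on the list was 1.5-fold apart.

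A list of related genes, with further deadenylases, exosome cofactors, exon junction and poly(A)-binding proteins and the microRNA effectors, matched 54 genes with reads in 1 group or both. Of these 33 were higher and 21 lower in mutants, with a median of 0.09. Of all genes with reads 52.6% were higher, with a median of 0.02. At least 1.5-fold higher were 4 of 54 and at least 1.5-fold lower 3 of 54, against the 13.0% and 10.4% of genes with reads given above. Magohb, a core protein of the exon junction complex, was at 61.0 RPKM in mutants and 33.9 RPKM in controls (0.83). Its paralogue Magoh was at 201 RPKM in mutants and 206 RPKM in controls. Patl2, the paralogue of Patl1, was at 0.985 RPKM in mutants and 0.0170 RPKM in controls, low in both. By level it stood at percentile 24.1 of the genes with reads in mutants and at percentile 3.70 in controls, near the bottom.

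Genes of 1 family also went different ways in this list. Ago2, the argonaute able to cleave its target, was at 2.56 RPKM in mutants and 1.13 RPKM in controls (0.74), whereas Ago1 was at 2.68 RPKM in mutants and 5.01 RPKM in controls (-0.71). Ago3 (0.17) and Ago4 (-0.02) differed less. Tent4b, a noncanonical poly(A) polymerase that marks RNA for the nuclear exosome, was at 2.98 RPKM in mutants and 1.38 RPKM in controls (0.74), whereas Tent4a was at 1.29 RPKM in mutants and 2.41 RPKM in controls (-0.57). The scaffolds of microRNA silencing Tnrc6a (0.14), Tnrc6b (-0.58) and Tnrc6c (0.40) were likewise mixed, as were the poly(A)-binding protein genes Pabpc1 (-0.42) and Pabpc4 (0.26). All but the Pabpc genes were at most at 5.01 RPKM in either group.

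The other 2 genes at least 1.5-fold lower besides Ago1 were Zcchc7 and Lsm14a. Zcchc7, of the complex that hands RNA to the nuclear exosome, was at 6.46 RPKM in mutants and 11.3 RPKM in controls (-0.73). Mtrex, the helicase of the same complex, was at 14.1 RPKM in mutants and 21.2 RPKM in controls (-0.55), and other cofactors of the nuclear exosome were mixed (Rbm7 at 0.39, Mphosph6 at 0.05, Zcchc8 at -0.03 and C1d at -0.41). Lsm14a, a P-body protein that binds DDX6, was at 16.5 RPKM in mutants and 27.2 RPKM in controls (-0.69), and its low paralogue Lsm14b differed by 0.09. Components that complete the complexes above were within 1.5-fold: Cnot9 was at 49.6 RPKM in mutants and 43.1 RPKM in controls, and Lsm8 at 126 RPKM in mutants and 115 RPKM in controls.

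**Figure D4:**
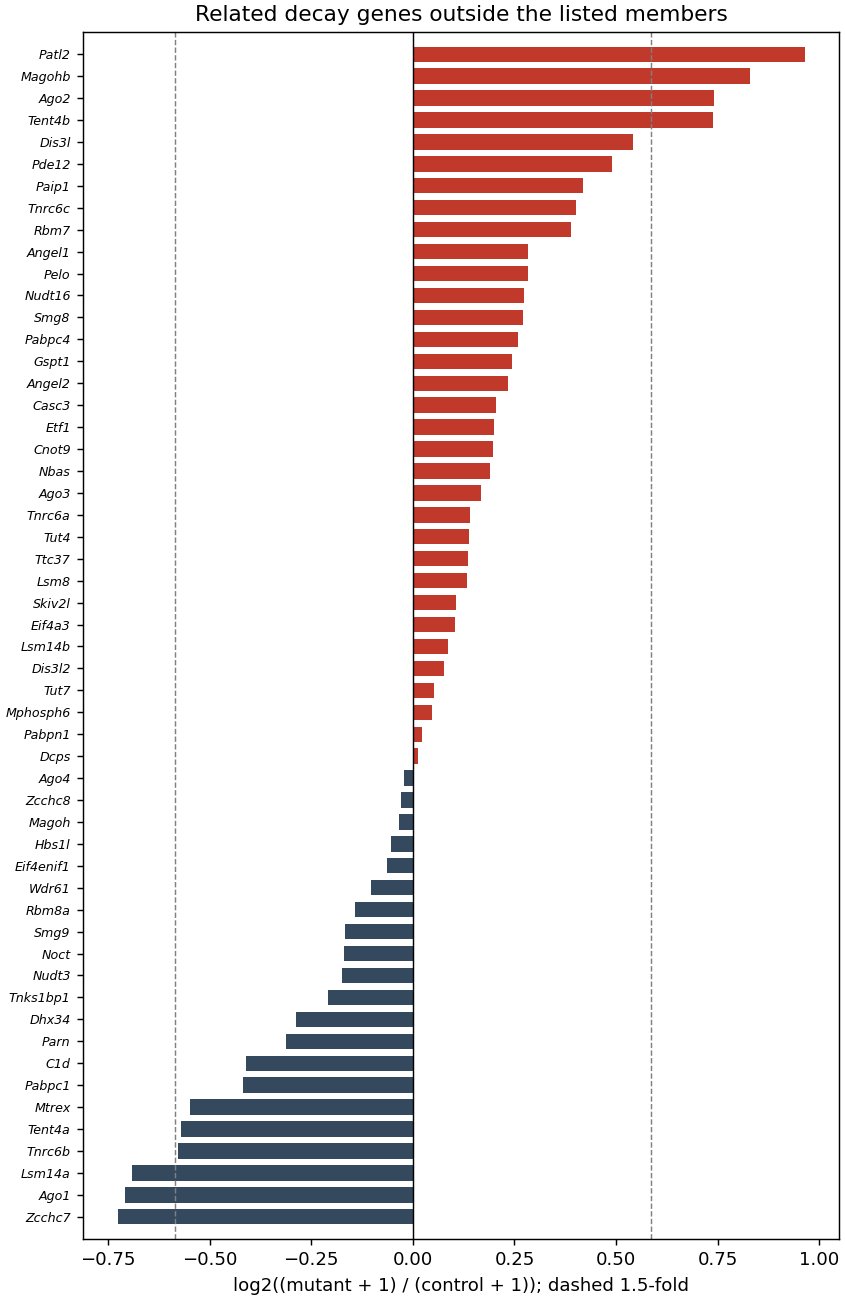
Differences (horizontal axis, log2 with a pseudocount of 1 RPKM, dashed lines at 1.5-fold) of 54 related decay genes, ordered from highest to lowest in mutants relative to controls. Patl2, Magohb, Ago2 and Tent4b lie past the line on the higher side, and Lsm14a, Ago1 and Zcchc7 on the lower side. Each bar comes from 1 mean per group, with no error.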

How the data were processed

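Per the file headers, the deposited values are RPKM, computed by the authors as 1 mean per gene and group. Per the submitters' processing notes, mm10 was the genome build, and Picard and edgeR are named as tools. What each did, and which aligner, annotation and averaging were used, was not given in the sources used here. Libraries were paired-end with reads of 100 bp. The members, lists, motifs and tests were chosen with earlier results of these data known.

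In 8499 genes (36.9%) the mutant/control ratio was 0.841 within a relative tolerance of 1e-06, and these were read as genes without reads. Where the gene had a GENCODE M21 transcript, the commonest product of value and length was 0.0348 RPKM for 1 kb in mutants and 0.0415 in controls. If that is 1 read added per library, the mean depth (harmonic) was 28.7 M reads in mutants and 24.1 M reads in controls (M, megareads), and every member had over 100 reads per library on average (lowest about 106, from the longest GENCODE transcript). Reads were amplified, so they are not independent molecules.

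Levels, folds, medians and shares were computed with pandas 2.3.3 and NumPy 2.4.6. A gene counted as apart at 1.5-fold or 2-fold with a pseudocount of 1 RPKM, which is a size threshold, not a statistical test. Every member was named; members at least 1.5-fold apart, the extremes of each subgroup and paralogue pairs were described singly. Positions and promoters are from RefSeq on GRCm38.p6. Of the listed symbols for related genes, Exosc6 was not analysed here. Ly6g and the antigen name Ter119, 2 of the marker symbols, were not analysed here either. A further related gene and a further marker are not reported here.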

Additional observations from a re-analysis of the deposited data

How the results depend on the processing

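The differences of the 44 decay genes kept their side of the 1.5-fold line with a pseudocount of 0.1 RPKM, with none, and with the mutant column divided by the median ratio (log2 0.02). With equal column sums 43 did, and Cnot6 (-0.58) did not. With a pseudocount of 0.1 RPKM or none, 1 decay gene (Dcp1a) was at least 2-fold higher in place of 0, since low genes then weigh more. Without a pseudocount the median of the PAN pair was -0.58 in place of -0.47. Related genes at least 1.5-fold lower numbered 5 in place of 3 under both settings, and 7 in place of 4 were higher without a pseudocount. The share of all genes past these lines was not computed for either setting, so these counts describe the settings and not the genes. Among genes with at least 10 RPKM in 1 group, 28 decay genes remained, without Pan2 and Dcp1a. Of these, 0 passed the 1.5-fold line upwards and 3 downwards, against 13.3% and 8.58% of all genes so filtered. The 2-fold line was passed downwards by 0, against 163 of the 6607 genes so filtered. The PAN median was 0.21 (Pan3 alone), and the decapping median was -0.75 (Edc3 and Dcp1b) in place of -0.20. Of the related genes in this set, 1 was at least 1.5-fold higher and 2 lower, with the same background shares. Adding Cnot11 by its identifier, chosen after seeing the data, made 22 genes higher and 23 lower. No paired analysis was possible because each group has a single deposited mean, and leaving out each replicate was not run for the same reason. The spread between animals cannot be estimated here, and the read depth is known only by inference.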

Other observations

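The sequence GGACT, a common context of m6A, was counted in the longest coding transcript of each gene in GENCODE M21, a choice made after seeing the data. The decay genes had a median of 0.813 GGACT per kb, against 1.05 per kb for 12257 genes with reads, and their median transcript was 3148 bases long, against 3051 bases. Across the 44 genes, which share libraries and depth, the rank correlation of GGACT density with the mutant/control difference was -0.22, against -0.00491 across the genes with reads. Of the decay transcripts, Exosc4 was the densest at 2.78 per kb, followed by Lsm2 at 2.29 and Cnot6 at 1.92 (11 in 5736 bases). Cnot3, with 2822 bases, held 0, as did Lsm3, Lsm4, Lsm5 and Upf3a. Of these genes, Cnot6 and Lsm4 were lower in mutants and the others higher. No m6A was measured in these libraries.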
